A study of Homo sapiens with 12 samples.

Results

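The proteasome genes of OVCAR-3 cells are described here, with the 5 interferon-inducible immune subunits set beside the other subunits, activators and assembly factors. Members were the rows of the normalized count table whose gene symbol began with PSMA, PSMB, PSMC, PSMD, PSME or PSMF followed by a number alone, together with the chaperones PSMG1 to PSMG4 and POMP. The rule found 47 of 28035 listed genes, and PSMA8 and PSMB11, subunits of the testis and thymus, were not listed. OVCAR-3 is an established human ovarian adenocarcinoma line, labelled wt in all groups. Messenger RNA was sequenced 6 h after treatment in 4 groups of 3 libraries. The Combination group received FC-A and IFNa together, the IFNa group interferon alpha alone, the FC-A group Fusicoccin A alone, and the DMSO group the vehicle. Fusicoccin A is a fungal metabolite that glues 14-3-3 adapter proteins to proteins they bind, and interferon alpha is an antiviral cytokine. No dose is given in the sources used here.

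The proteasome is the main protease of the cytosol and nucleus. A barrel of alpha and beta rings, the 20S core, cuts proteins inside its chamber, and a 19S cap recognises, unfolds and feeds in ubiquitin-tagged substrates. Interferons induce the catalytic subunits PSMB8, PSMB9 and PSMB10, which replace PSMB5, PSMB6 and PSMB7 in newly built cores and change the peptides offered to MHC class I. They also induce PSME1 and PSME2, the PA28 activator, which opens the core without ubiquitin.

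Promoter sequences are shown for members that share a site core, because the letters GAAA, any 2 bases and GAAA again are the core of the interferon-stimulated response element, through which interferon alpha acts on genes. RefSeq promoter windows (GRCh38.p14, 250 bases before to 50 after a gene start) were found for 41 of 47 members, and both strands were searched. These 41 had 50 windows. This core occurred in 7 of the 50 windows, each of another member, and in 3.57% of all 35116 windows. In PSMB8, PSMB10, PSME1, PSME2 and PSMG4 the match was the same 10 letters, GAAAGCGAAA, or their reverse complement TTTCGCTTTC. PSMB8 had 2 windows, and the match lay only in the window of the start used here. The following 140 bases run from base -120 to base 20, counted from 1 at the gene start, with the match in capitals.
PSMB8: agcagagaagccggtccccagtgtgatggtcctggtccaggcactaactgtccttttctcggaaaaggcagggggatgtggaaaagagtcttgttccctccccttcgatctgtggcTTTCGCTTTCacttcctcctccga
PSMB10: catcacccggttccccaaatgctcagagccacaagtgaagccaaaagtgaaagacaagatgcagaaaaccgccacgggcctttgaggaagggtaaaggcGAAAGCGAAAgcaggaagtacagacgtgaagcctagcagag
PSME1: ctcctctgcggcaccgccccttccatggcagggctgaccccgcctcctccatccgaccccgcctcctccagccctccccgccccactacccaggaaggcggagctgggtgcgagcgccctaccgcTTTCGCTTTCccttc
PSME2: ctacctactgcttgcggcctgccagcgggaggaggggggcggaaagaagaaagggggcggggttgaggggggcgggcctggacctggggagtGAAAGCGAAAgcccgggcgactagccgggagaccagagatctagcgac
PSMG4: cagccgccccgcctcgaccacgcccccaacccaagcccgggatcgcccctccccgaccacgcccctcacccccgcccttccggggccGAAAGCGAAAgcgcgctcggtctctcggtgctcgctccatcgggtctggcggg
PSMB4: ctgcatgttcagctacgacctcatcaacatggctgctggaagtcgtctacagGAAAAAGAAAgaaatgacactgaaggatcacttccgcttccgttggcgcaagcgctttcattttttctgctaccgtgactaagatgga
The windows are at chr6:32844028-32844167, minus strand, at chr16:67936831-67936970, minus strand, at chr14:24136074-24136213, plus strand, at chr14:24146591-24146730, minus strand, at chr6:3258827-3258966, plus strand and at chr1:151399453-151399592, plus strand. PSMB4, a structural subunit, is shown for contrast, since its match reads GAAAAAGAAA. The match of the seventh member, PSMA4, read GAAAATGAAA and lay at bases -240 to -231 of an alternative start.

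PSMB9 had no match in its own window, shown first, but shares its upstream region with TAP1, which encodes a subunit of the peptide transporter that feeds MHC class I. The gene starts lie 488 bases apart on opposite strands. The TAP1 window, bases -140 to -1, held 2 overlapping matches, and these lie 354 to 369 bases before the PSMB9 start.
PSMB9: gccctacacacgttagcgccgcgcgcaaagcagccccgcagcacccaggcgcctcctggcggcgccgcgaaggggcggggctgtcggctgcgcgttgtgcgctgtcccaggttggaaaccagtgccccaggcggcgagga
TAP1: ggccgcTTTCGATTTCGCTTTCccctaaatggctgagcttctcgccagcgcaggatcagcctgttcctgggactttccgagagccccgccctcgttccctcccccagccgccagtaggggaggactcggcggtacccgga
These windows are at chr6:32854072-32854211, plus strand, and at chr6:32853705-32853844, minus strand. PSMB8 and PSMB9 lie in the MHC region of chromosome 6, with starts 10145 bases apart, and the starts of PSME1 and PSME2 on chromosome 14 are 10416 bases apart. The constitutive counterparts PSMB5, PSMB6 and PSMB7 held no such core in their windows. The palindrome TTCNNNGAA, the core of the gamma-activated site, occurred in 7 of 50 member windows and in 7.66% of all windows, with 2 matches in PSMB5 and 1 in PSMB8. TGACNNNGC, the core of the antioxidant response element, occurred in 15 of 50 member windows and in 13.3% of all windows. A match describes letters only, and binding was not measured.

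Each library held 31.2 to 39.5 M reads assigned to genes, and 15990 genes, those averaging 10 or more normalized reads, were tested. All 47 members passed. All 8 markers of ovarian epithelium were listed, at a summed level of at least 319235 normalized reads in every library. Their levels were unequal, and in DMSO KRT8 averaged 164275 normalized reads and WT1 735. With IFNa, CDH1 and PAX8 rose, KRT19 fell and 5 did not pass, where 25.4% of all tested genes rose and 21.5% fell. Leukocyte markers summed to 173 to 291, with 7 of 12 listed, and the T cell markers CD3E, CD3D and CD2 were not among them. Fibroblast and endothelial markers, 7 of 8 listed, moved with IFNa: they summed to 1704 to 2305 in the Combination and 1556 to 2114 with IFNa, against 1216 to 1379.6 with FC-A and 1146 to 1242 in DMSO. Of the 4 tested, COL1A1 rose with IFNa and COL1A2, VWF and CDH5 fell, while the fibroblast marker DCN was at 0 in 11 of 12 libraries. The part of these cells or genes in the results was not tested. The deposited values of a library summed to 36.3 to 37.6 M with IFNa, alone or combined, and to 31.7 to 32.7 M without it. The labels do not say whether the 3 libraries of a group came from separate cultures, so p-values measure the spread between these libraries, which may be technical.

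IFNa raised all 3 immune catalytic subunits, and with the deposited scaling no constitutive counterpart passed the threshold. PSMB9, the immune counterpart of PSMB6, had 2452, 2428 and 2599 normalized reads in the IFNa libraries, against 113, 154 and 109.7 in the DMSO libraries. The groups lay far apart, and the log2 fold change was 4.32 (SE 0.13), a 19.9-fold rise (adjusted p = 2.11e-12, limma with Benjamini-Hochberg adjustment over 15990 genes). Fold changes are on the log2(value + 1) scale. In bulk RNA, fewer cells expressing a gene and less RNA per cell cannot be told apart.

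PSMB8, the immune chymotrypsin-like subunit, had 5144, 5350.2 and 5458 normalized reads with IFNa, against 1044, 1139 and 1102 in DMSO. It rose 4.85-fold (log2 2.28, SE 0.049, adjusted p = 2.87e-14). PSMB10, the immune trypsin-like subunit, had 1502, 1456 and 1586 normalized reads with IFNa, against 317, 319.5 and 349 in DMSO. It rose 4.60-fold (log2 2.20, SE 0.074, adjusted p = 7.60e-12), and as for PSMB8 no library of one group reached the range of the other. In the GENCODE v29 annotation (GRCh38, another build than the authors' hg19), 34.8% of the PSMB10 exon bases are shared with AC040162.1 on the same strand, and 20.6% of those of PSMB8 with PSMB8-AS1 or PSMB9 on the opposite strand. Whether counting used strand is not given in the sources used here, so reads of overlapping genes may have been divided between them.

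None of the 3 constitutive catalytic subunits passed the test with IFNa under the deposited scaling. PSMB5, the chymotrypsin-like counterpart of PSMB8, averaged 2465 ± 152 normalized reads with IFNa and 2500.03 ± 69.7 in DMSO (SD, n = 3 each), a log2 difference of -0.022 with a 95% interval of -0.15 to 0.11. For PSMB6, the caspase-like one, the averages were 2824 ± 170.03 with IFNa and 2769.9 ± 100.04 in DMSO, and the interval was -0.10 to 0.15. For PSMB7, the trypsin-like one, they were 6322 ± 478 with IFNa and 6009.5 ± 18 in DMSO, with an interval of -0.052 to 0.19. Under quantile normalization all 3 passed as lower with IFNa, PSMB5 at -0.18, PSMB6 at -0.14 and PSMB7 at -0.16, and without replicate 3 of every group PSMB7 passed as higher at 0.13 (adjusted p = 0.0344). With the deposited scaling, IFNa and DMSO libraries overlapped for all 3, and their adjusted p lay between 0.333 and 0.788 (limma).

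**Figure D1:**
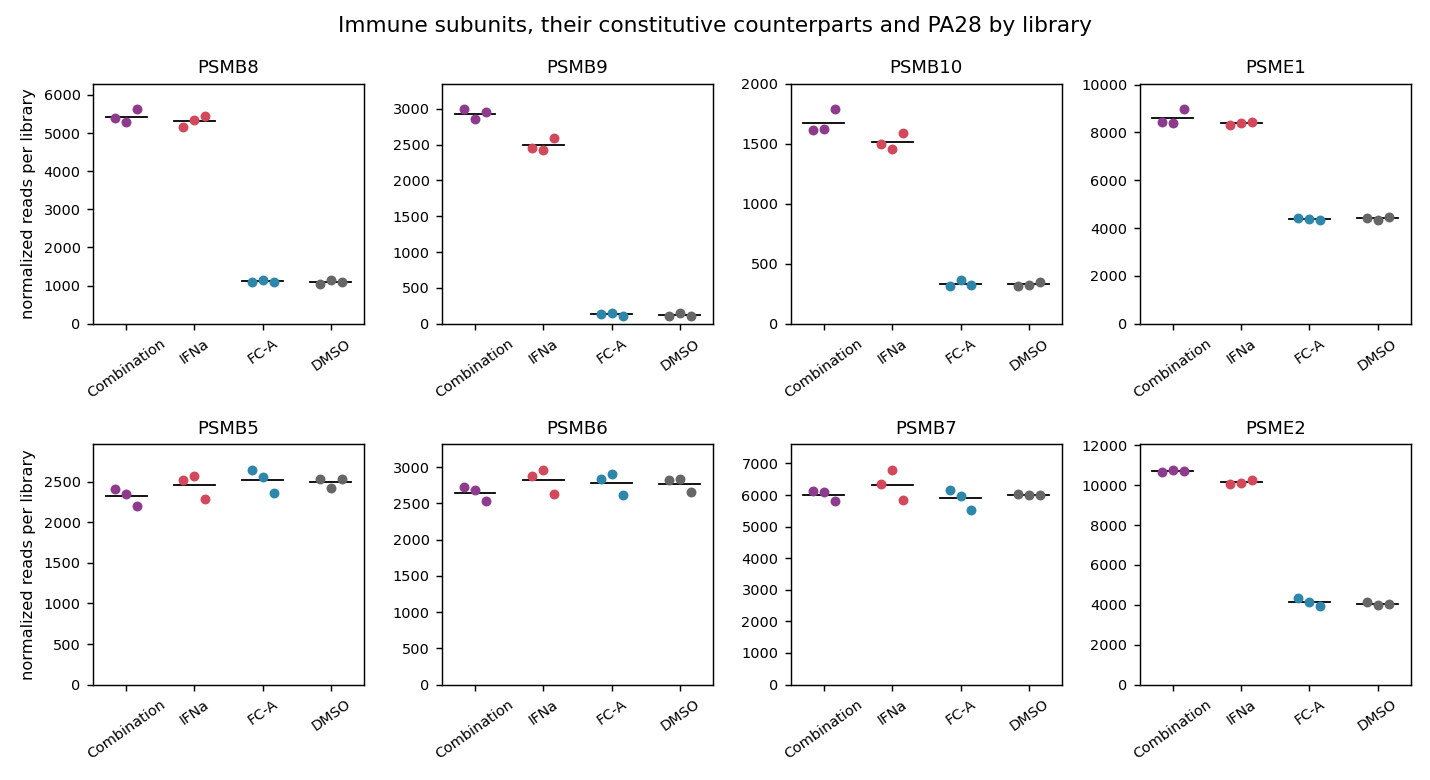
Normalized reads (y axis, from 0) of the immune subunits PSMB8, PSMB9 and PSMB10 above their constitutive counterparts PSMB5, PSMB6 and PSMB7, and of PSME1 and PSME2, by group; points are libraries and bars the mean of 3. The immune subunits and PA28 sit higher in all 6 libraries with IFNa than in all 6 without it. PSMB9 averaged 2934 in the Combination, 2493 with IFNa, 133 with FC-A and 126 in DMSO. The constitutive subunits overlap between libraries with and without IFNa. PSMB5 alone lay lower in all Combination libraries than in all DMSO ones, without passing the test.

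The balance within a library moved accordingly. The log2 ratio of PSMB8 to PSMB5 reads was 1.16, 1.17 and 1.35 in the Combination, 1.03, 1.05 and 1.25 with IFNa, -1.28, -1.16 and -1.10 with FC-A and -1.28, -1.09 and -1.20 in DMSO. The ratio of PSMB9 to PSMB6 was 0.13, 0.091 and 0.22 in the Combination, -0.23, -0.28 and -0.019 with IFNa, -4.32, -4.24 and -4.60 with FC-A and -4.63, -4.19 and -4.58 in DMSO. That of PSMB10 to PSMB7 was -1.92, -1.91 and -1.70 in the Combination, -2.08, -2.22 and -1.88 with IFNa, -4.31, -4.03 and -4.11 with FC-A and -4.25, -4.22 and -4.10 in DMSO. Ratios with IFNa exceeded those without it in every library for the 3 pairs, and gene length and any single scaling factor per library cancel in that change. IFNa over DMSO, the mean ratios of the PSMB8, PSMB9 and PSMB10 pairs differed by 2.30, 4.29 and 2.13 on the log2 scale. The Combination exceeded IFNa without overlap for PSMB9 over PSMB6, by 0.33, while the libraries of the other pairs overlapped. These ratios are descriptions, with no test.

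Levels of different genes compare only per length, here per kilobase of annotated exon. Per kilobase, PSMB8 had 1774 normalized reads and PSMB5 1397 with IFNa, against 365 and 1416 in DMSO, so their order turned round. PSMB9 had 812 per kilobase and PSMB6 1950.3 with IFNa, against 40.9 and 1913 in DMSO. PSMB10 had 818 and PSMB7 3538 with IFNa, against 177 and 3363 in DMSO. By this measure these last pairs kept the constitutive gene on top at 6 h. The length is that of all annotated exons of a gene joined, 3072 bases for PSMB9 and 1448 for PSMB6. Which transcripts were expressed was not tested. Uncorrected for length, the mean log2 ratio of PSMB9 to PSMB6 was -0.18 with IFNa and 0.15 in the Combination, so the order of this pair depends on the lengths. PSMB10 reads may also be understated, since 34.8% of its exon bases are shared on the same strand.

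**Figure D2:**
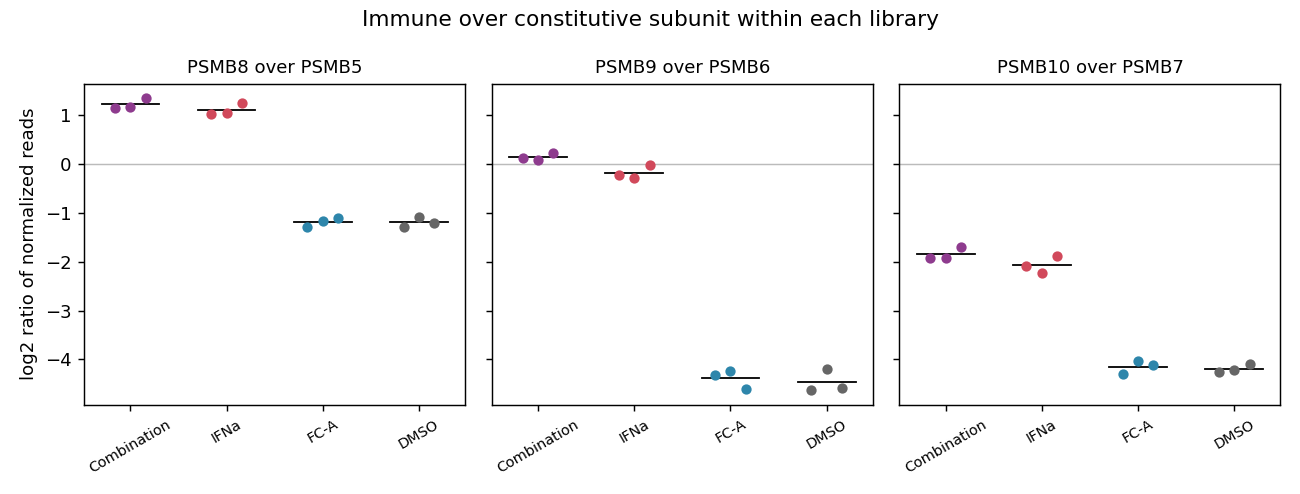
Log2 ratio of normalized reads of each immune subunit to its constitutive counterpart (y axis) in each library, by group; bars are means of 3 and the grey line marks equal reads, uncorrected for gene length. Mean ratios of PSMB8 to PSMB5 were 1.23 in the Combination, 1.11 with IFNa, -1.18 with FC-A and -1.19 in DMSO, and all 3 pairs separate libraries with and without IFNa.

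Both subunits of the PA28 activator rose with IFNa. PSME2 had 10047, 10124 and 10254 normalized reads with IFNa, against 4153, 3972 and 4023 in DMSO, a 2.50-fold rise (log2 1.32, SE 0.044, adjusted p = 6.93e-12, limma). PSME1 had 8323, 8392 and 8447 with IFNa, against 4442, 4323 and 4449.9 in DMSO, a 1.90-fold rise (log2 0.93, SE 0.041, adjusted p = 1.63e-10). Neither gene's groups overlapped. PSME2P2, named as a pseudogene of PSME2, averaged 188 normalized reads with IFNa and 76.7 in DMSO. Whether reads were divided between the copies was not tested. Per kilobase PSME1 had 4709.5 with IFNa and 2473 in DMSO, and PSME2 2831 with IFNa and 1130.5 in DMSO.

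Taking all members, 16 of 47 rose with IFNa, where 25.4% of all tested genes did, and 2 of 47 fell, where 21.5% of all tested genes did. Without overlap between the libraries, 17 members were higher with IFNa, where 30.4% of all tested genes were, and 4 lower, where 27.9% were. The 5 immune subunits were among those that rose, and of the 42 other members 11 rose, 2 fell and 29 did not pass. The median log2 fold change was 0.018 over those 42 and 0.027 over the 47, beside -0.0065 over all tested genes. Outside the immune set, the alpha ring held 5 of the 11 that rose.

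The alpha ring gates the entry to the core. Of its 7 subunits, PSMA2, PSMA3, PSMA4, PSMA5 and PSMA6 rose with IFNa, while PSMA1 and PSMA7 did not pass. PSMA4 had 6630.3, 6695 and 6373 normalized reads with IFNa, against 4052, 4113 and 4077 in DMSO, without overlap, and a log2 fold change of 0.69 (SE 0.065, adjusted p = 8.93e-07, limma). PSMA6 had 547, 607 and 539 with IFNa, against 345, 275 and 287 in DMSO, a log2 fold change of 0.90 (SE 0.095, adjusted p = 2.71e-06). PSMA3 and PSMA5, given here in addition to the members picked by rule and chosen after their values were seen, rose by 0.56 and 0.65 on the log2 scale, with adjusted p of 5.11e-05 and 9.57e-07.

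PSMA2 was scarce, with 78.5, 71.4 and 85.1 normalized reads with IFNa, against 53.5, 58.4 and 38.1 in DMSO. Its log2 fold change of 0.66 (SE 0.18, adjusted p = 0.00818) fell to 0.42 without replicate 3 of every group, and the call was then lost (adjusted p = 0.0973, limma). PSMA1 averaged 304 ± 25.3 with IFNa and 308 ± 18.2 in DMSO (SD, n = 3 each), and PSMA7, the most abundant alpha subunit per kilobase, 11266 ± 1139.8 with IFNa and 11521 ± 509.8 in DMSO. Their log2 differences were -0.017 with an interval of -0.20 to 0.17 and -0.036 with an interval of -0.22 to 0.15.

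The alpha subunits stand together in the same rings, yet their transcripts differed widely per kilobase in DMSO. PSMA7 had 6584, PSMA3 1405, PSMA5 671 and PSMA4 583 normalized reads per kilobase, against 93.2 for PSMA1, 46.4 for PSMA6 and 9.37 for PSMA2. The 3 scarce ones share 24.7%, 14.1% and 14.6% of their exon bases, in the order PSMA1, PSMA6 and PSMA2, with another annotated gene on the same strand. PSMA3, PSMA4, PSMA5 and PSMA7 share none. The scarce 19S chaperone gene PSMD9, at 16.6 per kilobase in DMSO, shares 19.9%. Other members went the other way. PSMG4, at 53.3 per kilobase in DMSO, shares none on its strand, and PSMB9, at 40.9, shares 5.66%. PSMB10 shares 34.8% yet had 177 per kilobase, more than PSMA1. The part of such overlaps in these levels was not tested.

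Of 4 structural beta subunits only PSMB2 rose, to 5667 ± 554 normalized reads with IFNa, against 4788 ± 174 in DMSO (log2 0.24, adjusted p = 0.0336, limma). Its call was lost on leaving out any DMSO library or IFNa replicate 1 or 2 (adjusted p up to 0.13). PSMB4, the most abundant per kilobase of the beta subunits with a matched length (PSMB3 had none), differed by -0.0042 on the log2 scale, with an interval of -0.11 to 0.11.

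None of the 6 ATPases that form the motor of the 19S cap passed the test with IFNa, at log2 fold changes of -0.045 to 0.068 with the deposited scaling. Under quantile normalization all 6, PSMC1 to PSMC6, passed as lower with IFNa, at -0.22 to -0.27. PSMC4, which had most normalized reads per kilobase in every group among the 46 members with a length, averaged 35294 ± 2112 with IFNa and 33631 ± 890.1 in DMSO. PSMC1 had the smallest change of the 6, -0.016, and shares 75.8% of its exon bases with NRDE2 on the opposite strand. Among 14 non-ATPase members none rose, 2 fell and 12 did not pass. PSMD10, a chaperone of 19S assembly also known as gankyrin, had 1035, 1025 and 960.2 with IFNa, against 1138, 1219 and 1212 in DMSO, a log2 fold change of -0.24 (SE 0.062, adjusted p = 0.00551). PSMD4, a ubiquitin receptor, had 9657, 10102 and 9030.1 with IFNa, against 10809, 10830.2 and 10767 in DMSO, a log2 fold change of -0.17 (adjusted p = 0.0234). Both genes were lower in all IFNa libraries than in all DMSO ones. The PSMD4 call was lost on leaving out any DMSO library or IFNa replicate 1 or 3 (adjusted p up to 0.0881). PSMD1, a scaffold subunit, had the smallest difference, -0.0025.

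Of the 8 remaining members, which are other activators, the regulator PI31 and assembly factors, PSME3, PSME4, PSMF1, PSMG2 and PSMG4 rose with IFNa. PSME4, the activator PA200, averaged 5601 ± 28.1 normalized reads with IFNa and 4702 ± 124 in DMSO (log2 0.25, adjusted p = 0.00201, limma). PSME3, the nuclear PA28 gamma, averaged 9168 ± 512 with IFNa and 7993 ± 95.9 in DMSO (log2 0.20, adjusted p = 0.0121), and its call was lost without IFNa replicate 2 (adjusted p = 0.0589). PSMF1, which encodes PI31, was higher by 0.24 in log2 units (adjusted p = 3.82e-04). Of the chaperones that build the alpha ring, PSMG4 rose by 0.30 (adjusted p = 0.00912) and PSMG2 by 0.20 (adjusted p = 0.00399). PSMG1 and PSMG3 differed by -0.0091 and 0.062 and did not pass. POMP, which guides beta subunits into the core, had 3012, 3075 and 2701 normalized reads with IFNa, against 2521, 2630.1 and 2591 in DMSO. Its libraries were all higher with IFNa, but the difference of 0.18 did not pass (adjusted p = 0.0854), and it passed on leaving out IFNa replicate 3 or FC-A replicate 1 or 3 (adjusted p 0.0277 to 0.0383).

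The small changes depended on how the libraries were scaled. Quantile normalization shifted the median of all tested genes to -0.099 for IFNa against DMSO, beside -0.0065 with the deposited scaling. It called 11 members higher and 24 lower, so that 31.4% of member calls were higher, beside 88.9% with the deposited scaling. Over all tested genes, 36.6% and 54.2% of calls were higher under these scalings. Among the 24 were the 3 constitutive catalytic subunits and the 6 ATPases, none of which passed with the deposited scaling. The 11 higher ones were the 5 immune subunits, PSMA2 to PSMA6 and PSMG4. The rise of PSME3 turned to -0.028 and no longer passed, and PSMB2, PSME4, PSMF1 and PSMG2 kept their sign but not their call. PSMB8, PSMB9, PSMB10, PSME1, PSME2, PSMA3, PSMA4, PSMA5, PSMA6 and PSMG4 passed under all 25 alternatives, and PSMB9 ranged over 4.20 to 4.47 among them.

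**Figure D3:**
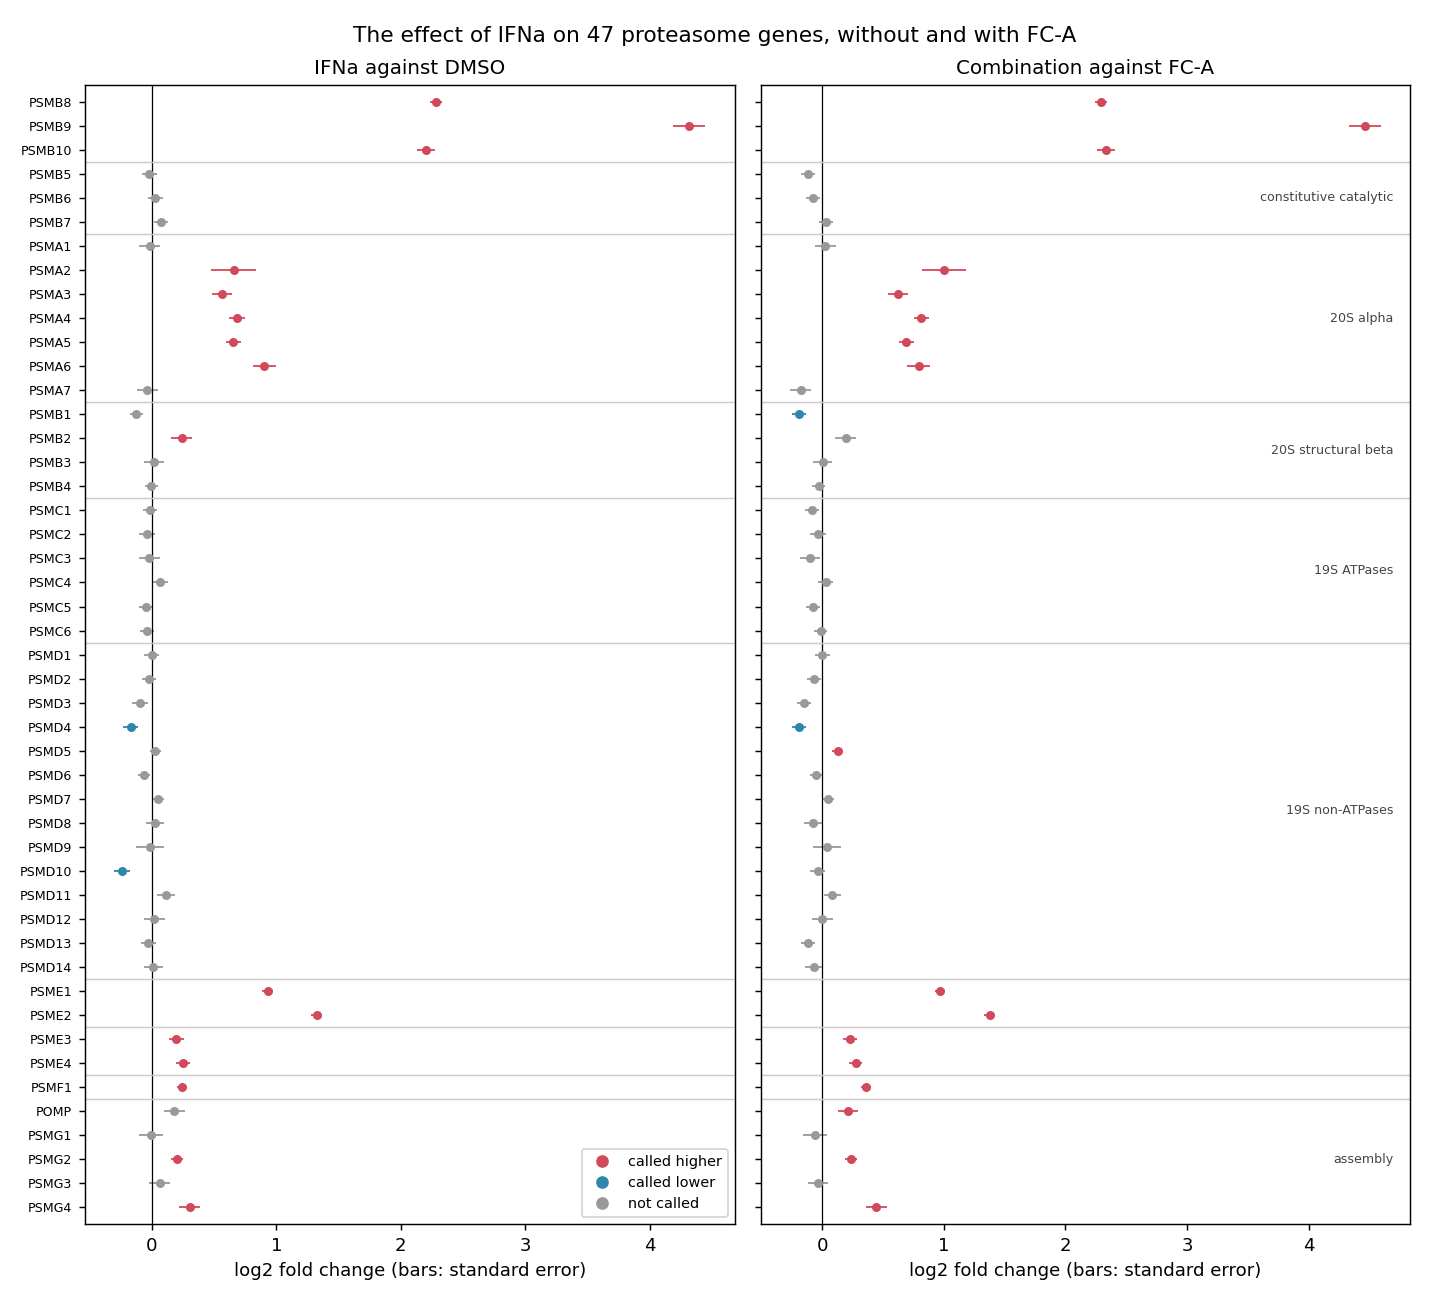
Log2 fold change (x axis, bars are SE) of the 47 members grouped by role, for IFNa against DMSO on the left and the Combination against FC-A on the right, colours giving the limma call at an adjusted p of 0.05. PSMB9 stands out at 4.32 and 4.47, with PSMB8, PSMB10, PSME2, PSME1 and 5 alpha subunits also right of 0 in both panels and most 19S genes near 0.

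The effect of IFNa was measured a second time in cells that also received FC-A, in 6 libraries that the first comparison did not use, although all 12 libraries share 1 estimate of the spread. For the Combination against FC-A, 17 of 47 members rose, where 26.6% of all tested genes did, and 2 fell, where 22.3% of all tested genes did. Without overlap, 16 were higher in the Combination, where 28.4% of all tested genes were, and 2 lower, where 25.4% were. Of the 16 that rose with IFNa alone and the 17 here, 15 were shared, 93.8% of the first and 88.2% of the second. PSMB2 passed only without FC-A, and POMP and PSMD5 only with it. PSMD4 fell in both, and PSMD10 (IFNa alone) and PSMB1 (with FC-A) in 1 each. An effect that passes in 1 comparison only was not shown to differ between them, and the test of that difference, the interaction, called 0 members.

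PSMB9 had 2992, 2853 and 2958 normalized reads in the Combination, against 141, 153 and 107 with FC-A, a 22.1-fold rise (log2 4.47, SE 0.13, adjusted p = 1.23e-12, limma). PSMB8 had 5384, 5292 and 5619 in the Combination, against 1085, 1139.9 and 1101 with FC-A, a 4.90-fold rise. PSMB10 had 1619, 1620.04 and 1787 in the Combination, against 311, 364 and 320.1 with FC-A, a 5.05-fold rise. The libraries of all 3 stood apart without overlap. PSME2 averaged 10707 ± 59.0 in the Combination and 4125 ± 213 with FC-A (log2 1.38), and PSME1 8594 ± 319 in the Combination and 4379.7 ± 44.0 with FC-A (log2 0.97). PSMA2 to PSMA6 rose by 0.62 to 1.0 on the log2 scale. PSMG4 rose by 0.44, PSMF1 by 0.36, PSME4 by 0.27, PSMG2 by 0.24 and PSME3 by 0.23.

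PSMB1, a structural beta subunit chosen here after its values were seen, had 3698, 3793 and 3808 normalized reads in the Combination, against 4438, 4259.98 and 4207 with FC-A, a log2 fold change of -0.19 (adjusted p = 0.00999, limma), a call kept under all 25 alternatives. Other calls near the threshold depended on single libraries or on the method. Of 25 alternatives, 18 ended the POMP call and 11 the PSMD5 call. POMP rose by 0.21 (adjusted p = 0.0488) with overlapping libraries, and its call was lost on leaving out any of 9 of the 12 libraries (adjusted p up to 0.223). PSMD5, a 19S assembly chaperone, rose by 0.13 (adjusted p = 0.0354, limma). Its call was lost without FC-A replicate 2 or 3 or Combination replicate 2 or 3, and the change turned to -0.052 under quantile normalization. TMM scaling, edgeR and a fit of the compared groups alone also ended the PSMD5 call (adjusted p 0.0650 to 0.0951). The PSMD4 call was lost without FC-A replicate 2 or Combination replicate 3 (adjusted p up to 0.0657). Without FC-A replicate 3, 7 members rather than 2 fell, the added ones being PSMA7, PSMB5, PSMC1, PSMD3 and PSMD13. Quantile normalization called 12 members higher and 24 lower, 33.3% higher against 89.5% with the deposited scaling.

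Set against DMSO, the Combination raised 15 of 47 members, where 26.1% of all tested genes rose, and lowered 5, where 22.2% of all tested genes fell. Without overlap between the libraries, 15 members were higher in the Combination, where 31.4% of all tested genes were, and 18 lower, where 29.4% were. This comparison shares its DMSO libraries with that of IFNa alone. The 15 that rose, all among the 16 of IFNa alone, were the 5 immune subunits, PSMA2 to PSMA6, PSME3, PSME4, PSMF1, PSMG2 and PSMG4. PSMB9 reached 23.4-fold (log2 4.55, adjusted p = 1.04e-12, limma), PSMB10 5.09-fold and PSMB8 4.96-fold. PSMB1, PSMC1, PSMD4, PSMD6 and PSMD10 fell, by 0.15 to 0.23 on the log2 scale. PSMB1 had 3698, 3793 and 3808 normalized reads in the Combination, against 4451, 4422 and 4389.8 in DMSO, with no overlap (adjusted p = 0.00306).

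Of the 5 members that fell, PSMB1 and PSMD4 kept their call under all 25 alternatives. Leaving out 1 library ended the call of PSMC1 in 9 of 12 cases (adjusted p up to 0.115), of PSMD6 without any DMSO library or Combination replicate 1 or 2 (up to 0.0780) and of PSMD10 without DMSO replicate 2 or 3 or Combination replicate 3 (up to 0.0552). Likewise PSME3 lost its rise without any DMSO library or Combination replicate 1 or 2 (up to 0.109). PSMG4 lost it without DMSO replicate 1 or 3 or Combination replicate 1 or 2, and PSMG2 without DMSO replicate 2 or Combination replicate 2. Quantile normalization turned PSME3 to -0.052 and called 11 members higher and 27 lower, 28.9% higher against 75% with the deposited scaling.

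FC-A alone changed no member past the threshold, among 0.156% of all tested genes called higher and 0.144% called lower with it, 25 and 23 genes. DESeq2 called 87 and 84 of the 12270 genes it gave an adjusted p. At an unadjusted p under 0.05 the count was 3 of 47 members, where 8.61% of all tested genes passed, and edgeR called 0 of 47 and DESeq2 0 of the 46 members it gave an adjusted p. Without overlap, 0 members were higher, where 7.81% of all tested genes were, and 4 lower, where 7.44% were. PSMB9 had 141, 153 and 107 normalized reads with FC-A, against 113, 154 and 109.7 in DMSO, and the ranges overlapped. The log2 difference was 0.086 with a 95% interval of -0.20 to 0.37. Intervals were -0.086 to 0.12 for PSMB8, -0.15 to 0.17 for PSMB10, -0.10 to 0.079 for PSME1 and -0.070 to 0.12 for PSME2. The 3 members at an unadjusted p under 0.05, named after their values were seen, were PSMA6 at 0.23, PSMD10 at -0.17 and PSMG4 at -0.18. Of the 47 log2 differences 36 were negative, with a median of -0.040 beside -0.0046 over all tested genes. Without replicate 3 of every group the members' median was -0.00098.

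Adding FC-A to IFNa also called no member, among 0.138% of all tested genes called higher and 0.194% called lower in the Combination against IFNa, 22 and 31 genes. DESeq2 called 143 and 97 of 12890 genes. Only PSMC1 was below an unadjusted p of 0.05, at -0.13 on the log2 scale, where 13.2% of all tested genes were, and edgeR and DESeq2 called 0 members. PSMB9 had 2992, 2853 and 2958 normalized reads in the Combination, against 2452, 2428 and 2599 with IFNa. The 3 Combination libraries were all higher, but the log2 difference of 0.24 (95% interval -0.046 to 0.52) did not pass (adjusted p = 0.455, limma). PSMB10 and PSME2 were likewise higher in all Combination libraries, by 0.14 (interval -0.015 to 0.30) and 0.078 (interval -0.017 to 0.17), and did not pass. For PSMB8 and PSME1 the libraries overlapped, at 0.031 and 0.034. Such separation upward held for 3 of 47 members and for 9.64% of all tested genes, and separation downward for 3 of 47 and 6.75%. All 5 immune differences were positive, while 34 of the 42 others were negative. The median of those 42 was -0.067, beside 0.0046 over all tested genes. These counts of signs were not tested.

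The interaction, the FC-A difference with IFNa minus that without, called 0 of 47 members and 0% of all tested genes with limma. At an unadjusted p under 0.05 it held 1 member, PSMD10, where 3.92% of all tested genes were, and edgeR and DESeq2 called 0 members. The PSMD10 value was 0.20 (95% interval 0.016 to 0.39). Intervals of the immune subunits were -0.25 to 0.55 for PSMB9, -0.094 to 0.36 for PSMB10, -0.14 to 0.16 for PSMB8, -0.082 to 0.19 for PSME2 and -0.081 to 0.17 for PSME1 on the log2 scale.

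Replicate 3 stood apart from the other libraries. In each group the library numbered 3 was the lowest for most members, 34 of 47 in the Combination, 38 with IFNa, 42 with FC-A and 27 in DMSO. Over all tested genes that library was the lowest, in the order Combination, IFNa, FC-A and DMSO, for 39.3%, 41.5%, 39.2% and 37.8%. The median member in it lay -0.054, -0.093, -0.11 and -0.015 from its group mean on the log2 scale, in the order Combination, IFNa, FC-A and DMSO. PSMB8, PSMB9 and PSMB10 were highest in replicate 3 among the IFNa libraries. Without replicate 3 of every group, 2 members were lower in the Combination than with IFNa. They were PSMB1 at -0.18 (adjusted p = 0.0323, limma) and the deubiquitinase PSMD14 at -0.17 (adjusted p = 0.0423), in a fit that called 619 genes higher and 568 lower, far more than the fit of 12 libraries. What sets replicate 3 apart was not tested.

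**Figure D4:**
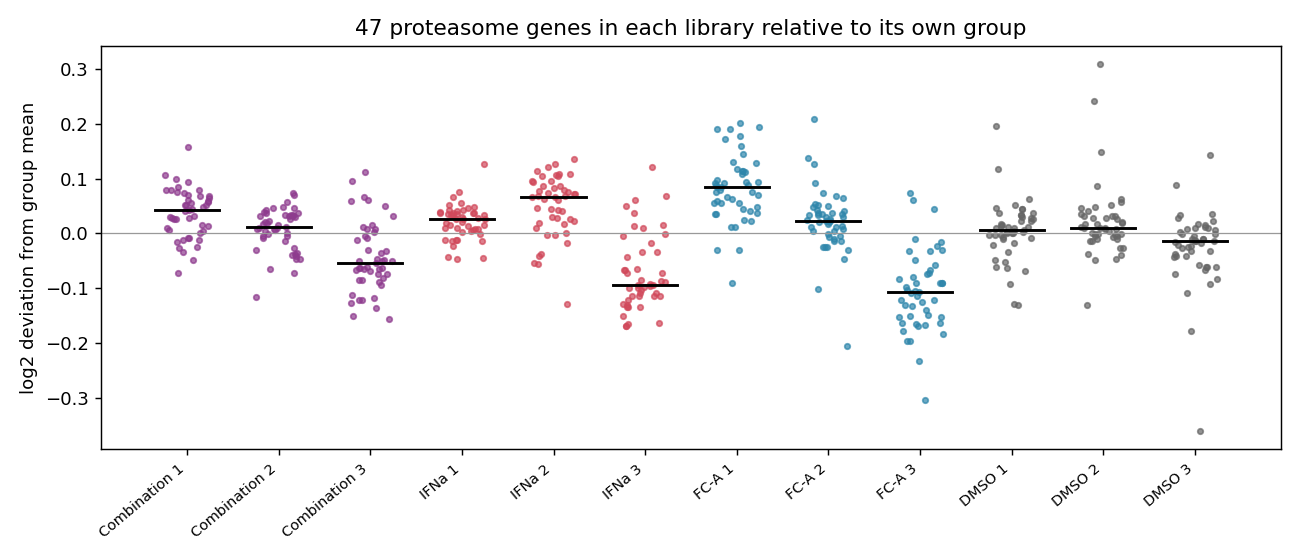
Deviation of each member from its own group mean (y axis, log2) in every library; points are the 47 members and bars their median. The medians of replicate 3 lie lowest in every group, between -0.11 with FC-A and -0.015 in DMSO.

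Genes that work with the proteasome changed in part. Of 22 listed partners, 8 rose with IFNa, 1 fell and 13 did not pass, where 25.4% of all tested genes rose and 21.5% fell, with a median log2 fold change of 0.042. KIAA0368, a proteasome adaptor also called ECPAS, averaged 5239 ± 166 normalized reads with IFNa and 3513 ± 67.6 in DMSO (log2 0.58, adjusted p = 1.72e-07, limma). NFE2L2, the oxidative stress factor NRF2, rose by 0.45, the ubiquitin shuttle UBQLN1 by 0.28 and the VCP cofactor NPLOC4 by 0.25. PAAF1, a chaperone of the 19S ATPases, fell by 0.30 (adjusted p = 0.00899). In the Combination against FC-A, 10 partners rose and 2 fell, where 26.6% and 22.3% of all tested genes did, and FC-A against DMSO called 0 of 22.

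The neighbours of the immune genes and the factors known to act on them rose further than most members. TAP1, which shares its upstream region with PSMB9, averaged 21979.5 ± 339.9 normalized reads with IFNa and 962 ± 61.5 in DMSO, a log2 fold change of 4.51 beside 4.32 for PSMB9. TAP2, near PSMB8, rose by 2.43 beside 2.28 for PSMB8. Of the factors, NLRC5, the activator of MHC class I genes, rose by 3.79 and IRF1 by 2.86 on the log2 scale. None of TAP1, TAP2, NLRC5 and IRF1 passed for FC-A against DMSO or for the Combination against IFNa. In the latter, IRF1, NLRC5 and TAP1 were higher in all Combination libraries, by 0.22, 0.18 and 0.097 on the log2 scale. Such separation upward held for 9.64% of all tested genes. The TAP2 libraries overlapped, at 0.051.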

How the data were processed

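The authors deposited 1 signal table, normalized counts of 12 libraries, which became whole reads in 100% of values (tolerance 0.01) when rescaled by 1 factor per library. Log2 fold changes and p-values of the authors' deposited tables served as an alternative. Their standard errors and Wald statistics are score columns, per the file headers. Libraries were made from 100 ng of RNA with a stranded messenger RNA kit, per the labels' protocols. STAR 2.7.3, bcl2fastq 2.20, FastQC, DESeq2 1.24.0 and build hg19 are named in the submitters' processing notes, and neither the counting program nor the annotation is given in the sources used here. Members and lists were chosen with earlier results of these data known.

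limma 3.58.1 (R 4.3.3, eBayes with trend, two-sided) fitted log2(value + 1) of 15990 genes with a mean of at least 10 in all 12 libraries, leaving out 12045, with Benjamini-Hochberg adjustment per comparison and a threshold of 0.05. The code was tested on simulated data. The alternatives tried were TMM or quantile scaling, a pseudocount of 0.5 or 8, a minimum mean of 50 or none, eBayes without its trend, a fit restricted to both groups compared, a replicate block, leaving out libraries, edgeR 4.0.16 quasi-likelihood and DESeq2 1.42.0 on recovered reads, and the authors' deposited tables. Genes were named by role and size of change, and the text says where one was chosen after its values were seen. Exon lengths and overlaps came from GENCODE v29, which held 46 of 47 member IDs (PSMB3 was not matched). An item of a gene list is not reported here. Printed coordinates are those of RefSeq promoters on GRCh38.p14, not of hg19.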

Additional observations from a re-analysis of the deposited data

How the results depend on the processing

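Counts of members that rose stayed within 1.5 times of the reported ones under every alternative run, and no member was called for the interaction under any. Counts of members that fell moved more. Quantile normalization gave 24 lower members for IFNa against DMSO, 27 for the Combination against DMSO and 24 for the Combination against FC-A. It reversed PSME3 in the Combination against DMSO (-0.052), PSMD5 in the Combination against FC-A (-0.052) and PSME3 with IFNa against DMSO (-0.028). Leaving out 1 library at a time gave 1 to 3 lower members for IFNa against DMSO, 2 to 5 for the Combination against DMSO and 1 to 7 for the Combination against FC-A. Without replicate 3 of every group, 2 members fell in the Combination against IFNa and 7 in the Combination against FC-A. With the replicate block, 12 members fell in the Combination against DMSO and 6 in the Combination against FC-A, with 17, 16 and 18 higher for IFNa against DMSO, the Combination against DMSO and the Combination against FC-A. The labels do not say whether equal replicate numbers pair libraries across groups, and the main fit used no block. Correlations of same-numbered deviations lay between 0.0176 and 0.395. Replicates 1 and 2 did not always correlate best with their own number. Replicate 3 did in every pair of groups, at 0.188 to 0.395, so structure shared by number is left in the main fit. Over all tested genes, FC-A against DMSO had 25 higher and 23 lower genes, against 145 and 144 with the block, 60 and 74 without replicate 3 of every group, 78 and 77 in the authors' deposited table, 6 and 14 without the variance trend and 10 and 16 in a fit of those groups alone. The Combination against IFNa had 22 and 31, against 542 and 467 with the block, 619 and 568 without replicate 3, 135 and 96 in the authors' deposited table, and 2 and 9 or 2 and 8 in those last settings. The cause of these moves was not tested. With 3 libraries a group, standard errors of the members ran from 0.041 to 0.18 (log2) between groups, which limits how small a difference could pass.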
